A study of Mus musculus with 57 samples.

Results

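Ccr8, Ccr4, Gpr44 and Cxcr6 are receptor genes that steer T helper 2 (Th2) cells into tissue, and their levels were described in single mouse Th2 cells. They were chosen by name, as the rows ccr8, ccr4, gpr44 and cxcr6, 4 of the 10565 genes in the deposited expression table, and all 4 were present and were read in all 56 cells. The cells were wild type, from the spleens of C57BL/6 mice aged 8 weeks. CD4+ T cells were activated through CD3 and CD28, cultured over 5 days towards the Th2 fate in the presence of interleukin-4 and of anti-IFN gamma to block the Th1 fate, given interleukin-2 during the culture, and restimulated through CD3 and CD28. Every cell had this one treatment, so there was no control group, and they are counted as 1 sample because the labels name no separate animals or cultures. They were a cultured population made in a dish, not Th2 cells taken from inflamed tissue, and a pooled sample of 10000 cells was not analysed here. The labels number the cells within 5 sets, T1 (8 cells) and T2 to T5 (12 cells each), without saying what a set is.

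All 4 genes encode receptors that couple to G proteins and let a T cell sense where to go. Ccr8 binds the chemokine Ccl1 and marks Th2 cells and regulatory T cells in skin and inflamed lung. Ccr4 binds Ccl17 and Ccl22, which are made by dendritic cells and epithelium in allergic skin and airway. Gpr44, now named Ptgdr2 and also known as CRTH2, is a receptor for prostaglandin D2, the lipid released by mast cells, and serves as a surface marker of human Th2 cells. Cxcr6 binds Cxcl16 and is known from T cells that settle in peripheral tissue. Gata3 is the transcription factor that defines the Th2 fate, and its binding motif has the core letters GATA.

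Because the relation of the receptors to Gata3 is described below, the RefSeq promoter of each gene (GRCm38.p6, 250 bases before to 50 after the annotated start, printed in the direction of transcription) was searched for GATA on both strands. Capitals mark each match, which reads TATC where it lies on the other strand. The Ccr8 window is chr9:120091883-120092182 (plus strand), the Ccr4 window chr9:114496495-114496794 (minus strand), the Gpr44 window chr19:10936910-10937209 (plus strand) and the Cxcr6 window chr9:123806227-123806526 (plus strand).
Ccr8: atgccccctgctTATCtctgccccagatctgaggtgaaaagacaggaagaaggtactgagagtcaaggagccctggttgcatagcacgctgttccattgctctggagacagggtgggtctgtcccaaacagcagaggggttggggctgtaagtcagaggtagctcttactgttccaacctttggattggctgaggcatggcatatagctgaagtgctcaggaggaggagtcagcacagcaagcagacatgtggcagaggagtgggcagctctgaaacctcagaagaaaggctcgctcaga
Ccr4: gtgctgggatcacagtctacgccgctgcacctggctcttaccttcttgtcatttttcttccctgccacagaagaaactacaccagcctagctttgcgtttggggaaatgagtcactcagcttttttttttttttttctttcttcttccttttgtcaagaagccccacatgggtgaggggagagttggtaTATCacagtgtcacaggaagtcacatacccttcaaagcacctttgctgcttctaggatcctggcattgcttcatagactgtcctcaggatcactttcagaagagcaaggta
Gpr44: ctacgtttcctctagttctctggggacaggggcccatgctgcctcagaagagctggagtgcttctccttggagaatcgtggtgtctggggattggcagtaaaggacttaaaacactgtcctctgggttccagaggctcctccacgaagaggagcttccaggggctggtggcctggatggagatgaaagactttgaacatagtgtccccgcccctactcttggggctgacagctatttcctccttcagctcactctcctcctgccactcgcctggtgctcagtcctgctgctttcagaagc
Cxcr6: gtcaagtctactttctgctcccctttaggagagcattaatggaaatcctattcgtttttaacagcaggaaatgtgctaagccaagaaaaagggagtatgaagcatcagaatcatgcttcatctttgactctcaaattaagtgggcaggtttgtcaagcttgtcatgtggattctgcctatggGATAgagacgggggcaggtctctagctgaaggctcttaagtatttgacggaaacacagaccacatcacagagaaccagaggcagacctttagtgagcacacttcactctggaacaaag
A match was present in 3 of the 4 windows, and the Gpr44 window held none. It began 238 bases before the start of Ccr8, 61 before that of Ccr4 and 68 before that of Cxcr6. Of all 32851 promoter windows of this length, 57.9% held a GATA on either strand, so its presence does not set these genes apart. The longer words AGATAA or AGATAG, and likewise TGATAA or TGATAG, were searched in the same way. Only the Ccr8 window had one of them, AGATAA on the other strand at the site of the shorter match, and 29.8% of all windows held at least 1.

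The table gives TPM, a transcript level scaled for gene length and to the same total in each cell, which the authors had rounded to whole numbers. Levels of different genes can therefore be set side by side, but the sequencing depth of each cell is unknown. A receptor was called detected at 1 TPM or more, and a value of 0 is reported as listed at 0, because genes that every cell needs were also at 0 in many cells (Tbp was detected in 28 cells). The number of genes detected per cell had a median of 4743.5 and ran from 2679 in cell T4_3 to 8396 in cell T3_5. Cells T3_2 and T3_5 stand apart from the others, T3_5 by its gene number and T3_2 by the lowest Gata3 of all cells. Without both, the counts of correlated pairs given below were the same for the receptors and for Gata3, and 1 cytokine pair was added, Ccr8 with Il31. The T cell genes Cd3d and Cd2 and the Th2 regulator Gata3 were detected in all 56 cells. Few of the listed markers of other cell types were analysed here. Of the 5 B cell markers this was 1, Cd74, which was detected in 32 cells at 0 to 672 TPM, with a median of 7. Of the 5 myeloid markers 1 was analysed (0 to 481 TPM), of the 8 mast cell, basophil and eosinophil markers 2 (0 to 160), of the 5 erythroid and platelet markers 1 (Alas2, in 2 cells), and of the 7 Th1 and NKT markers 3 (0 to 635). The median cell was at 0 for each of these. Of the 5 CD8 T and NK markers 2 were analysed, and they summed to 0 in the median cell. The highest sum was 5592 TPM in cell T1_7, all of it Nkg7, a cytotoxic granule gene detected in 24 cells at a mean of 246 TPM. Nkg7 had a rho of -0.15 with Ccr8, -0.20 with Ccr4, 0.03 with Gpr44 and 0.14 with Cxcr6, and Cd74 had 0.14, 0.03, 0.07 and 0.22 with the same receptors. Double captures were not searched for.

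Cxcr6 was the most abundant of the 4 receptors, followed by Ccr8, Ccr4 and Gpr44. Cxcr6 and Ccr8 were found in nearly all cells, Ccr4 in about as many cells as lacked it, and Gpr44 in a minority. For Cxcr6, the receptor of Cxcl16, the lowest cell was at 0, the median cell at 1130.5 and the highest cell at 5802 TPM (mean 1352.5, SD 1417.3, n = 56 cells). It was detected in 51 cells, 91.1% (exact Clopper-Pearson 95% interval 80.4 to 97.0, which covers counting error only), and 30 cells held 1000 TPM or more. The highest cells were T5_1, T5_4 (5757 TPM) and T1_8 (4315 TPM), while T1_2, T1_5, T3_1, T3_3 and T4_3 were listed at 0.

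Ccr8, the Ccl1 receptor, ranged over cells from 0 through a median of 255 to 1586 TPM (mean 375, SD 387). It was detected in 52 cells, 92.9% (interval 82.7 to 98), and was listed at 0 in T1_5, T3_1, T3_2 and T3_4. Its levels were spread evenly enough that the highest cell, T4_3, held 7.55% of the total over all cells, and the next were T5_4 (1360 TPM) and T4_2 (1355 TPM). Although Ccr8 was detected as widely as Cxcr6, its level was the lower of the pair in 41 cells, the higher in 13 and equal in 2.

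Ccr4, the receptor for Ccl17 and Ccl22, had a median of 0 and a highest value of 1063 TPM (mean 62.6, SD 171). It was detected in 27 cells, 48.2% (interval 34.7 to 62.0), at a median of 48.0 TPM among them. A few cells carried most of it. T4_3 held 30.3% of the total, T3_7 had 618 and T5_5 298 TPM, and the 5 highest cells together held 68.8%. Ccr4 lay below Ccr8 in 49 cells, above it in 4 and equal to it in 3. The means of Ccr8 and Ccr4 differ by less than the SD of Ccr8 over cells, and those of Cxcr6 and Ccr8 by less than the SD of Cxcr6.

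Gpr44, the prostaglandin D2 receptor, was scarce. Its values ran from 0 (also the median) to 153 TPM, with a mean of 5.64 and an SD of 21.8 (mean 2.96 without the highest cell, T5_8). It was detected in 18 cells, 32.1% (interval 20.3 to 46.0), but 9 of these lay between 1 and 4 TPM. At 5 TPM or more, 9 cells remained: T5_8 (153 TPM), T5_3 (53), T3_8 (24), T5_5 (22), T1_3 (16), T3_4 (11), T3_10 (9), T5_10 (8) and T3_5 (7). T5_8 alone held 48.4% of the total. The means of Ccr4 and Gpr44 also differ by less than the SD of Ccr4 over cells, and 20 cells had equal values of both, against 23 cells with more Ccr4 and 13 with more Gpr44.

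The Gpr44 values carry a further limit. In the GENCODE annotation of GRCm38, which is later than the mm9 build of the deposited data, Ptgdr2 lies opposite the nucleolar protein gene Ccdc86, and 1031 of its 2644 exon bases are shared with exons of that gene. The labels do not say whether the libraries kept strand, so reads from the shared stretch cannot be assigned to either gene. Ccdc86 was detected in 42 cells at a mean of 74.1 TPM, and all 18 cells with Gpr44 also had Ccdc86, where the product of their shares gives 13.5. In these 18 cells Ccdc86 ran from 1 through a median of 112 to 345 TPM, against 0, 1.5 and 317 TPM in the 38 cells without Gpr44. Over the 56 cells the Spearman rho of Gpr44 and Ccdc86 was 0.57, and 0.26, 0.55, 0.37, 0.64 and 0.77 within sets T1 to T5. How much of the Gpr44 signal belongs to Ccdc86 was not tested. Cxcr6 also lies inside another gene on the opposite strand, Fyco1, but the exons share 0 bases. Fyco1 was detected in 25 cells, averaged 12.6 TPM over all cells and had a rho of 0.35 with Cxcr6. Ccr8 and Ccr4 overlap no other annotated gene.

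**Figure D1:**
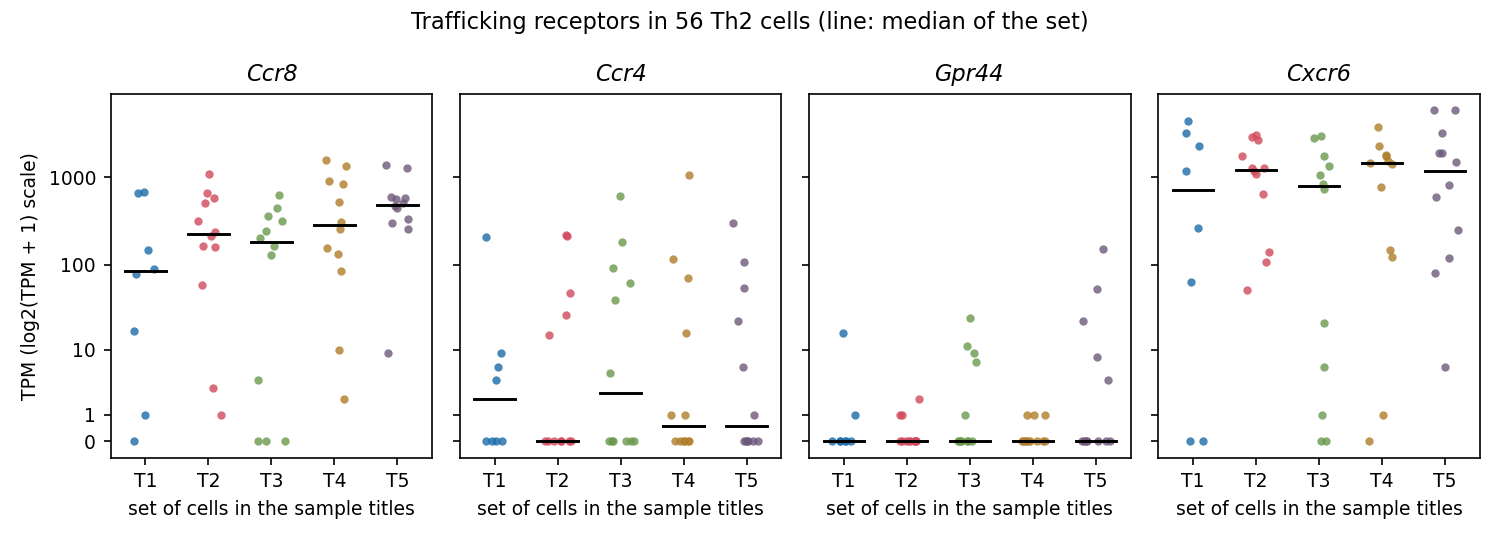
TPM of the 4 receptors in each of the 56 cells (points), by set T1 to T5 on the x axis; the y axis is on the log2(TPM + 1) scale, with ticks in TPM, and the line is the median of the set. Ccr8 and Cxcr6 fill the upper range in every set, with medians of 84.0 to 488 and 718 to 1444 TPM, whereas most Ccr4 and Gpr44 points lie at or near 0.

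Levels overlapped widely between sets. The set medians of Ccr8, in the order T1 to T5, were 84.0, 227, 184, 282 and 488 TPM. All 12 cells of T2, T4 and T5 had Ccr8, 9 of 12 in T3 and 7 of 8 in T1, so each of the 4 cells without it lay in T1 or T3. The Cxcr6 medians were 718, 1216, 789, 1444 and 1162.5 TPM in T1 to T5, with detection in 6, 12, 10, 11 and 12 cells. Ccr4 was detected in 4, 5, 6, 6 and 6 cells of the sets. Gpr44 was in 2, 3, 5, 3 and 5 cells, and did not pass 2 TPM in T2 or 1 TPM in T4. The range within each set was larger than any gap between set medians for all 4 genes. Set and any batch effect cannot be told apart.

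To set the spread over cells against that of other genes, the log2 squared coefficient of variation of each receptor was taken minus the running median of the genes nearest to it in mean TPM. Cxcr6 lay 1.74 above that median and Ccr4 1.14 above it. Gpr44 (0.61) and Ccr8 (0.33) did not pass 1. Of the 7871 genes detected in at least 10 cells, 13.1% were above 1 (15.1% were below -1, and 28.2% either), and 2 of the 4 receptors were above 1. Cxcr6 stayed above 1 in all 10 alternatives run, while Ccr4 was at 0.84 without each gene's highest cell and at 0.39 without set T4, which holds cell T4_3.

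Most cells carried several of the receptors. Cxcr6 was the highest of the 4 in 41 cells, Ccr8 in 13 and Ccr4 in 1 (T1_5), and Cxcr6 made up 75.3% of the summed TPM of the 4 genes. All 4 receptors were detected in 9 cells (16.1%, interval 7.62 to 28.3), 3 in 23 cells, 2 in 20, 1 in 3 and none in T3_1. Ccr8 and Cxcr6 together were in 49 cells (87.5%, interval 75.9 to 94.8). Of the 16 possible combinations 10 occurred, and 4 of them, all with both Ccr8 and Cxcr6, covered 49 cells. Ccr8 with Cxcr6 alone was found in 17 cells. Adding Ccr4 gave 15 cells, adding Gpr44 gave 8 and adding both gave 9.

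These numbers lay close to the product of the 4 single shares, which gives 16.6, 15.5, 7.88 and 7.34 cells for the same 4 combinations. As Ccr8 and Cxcr6 were each in nearly all cells, their joint count was largely set by the single shares. Ccr4 and Gpr44 were detected together in 9 cells, against 8.68 from the product of their shares, and Ccr4 was in 9 of the 18 cells with Gpr44 and in 18 of the 38 cells without it. All 18 cells with Gpr44 had Cxcr6, where the product gives 16.4. In the 18 cells with Gpr44, Cxcr6 ran from 1 through a median of 1629 to 3208 TPM, against 0, 756 and 5802 TPM in the 38 cells without it. The remaining combinations were held by few cells. Ccr8 with Ccr4 but no Cxcr6 was found in T3_3 and T4_3 (1.52 cells from the product). Ccr4 alone was in T1_5 (0.117), Ccr8 alone in T1_2 (1.63), Cxcr6 alone in T3_2 (1.28), and Cxcr6 with Gpr44 in T3_4 (0.606). For T3_1, with none, the product gives 0.126.

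**Figure D2:**
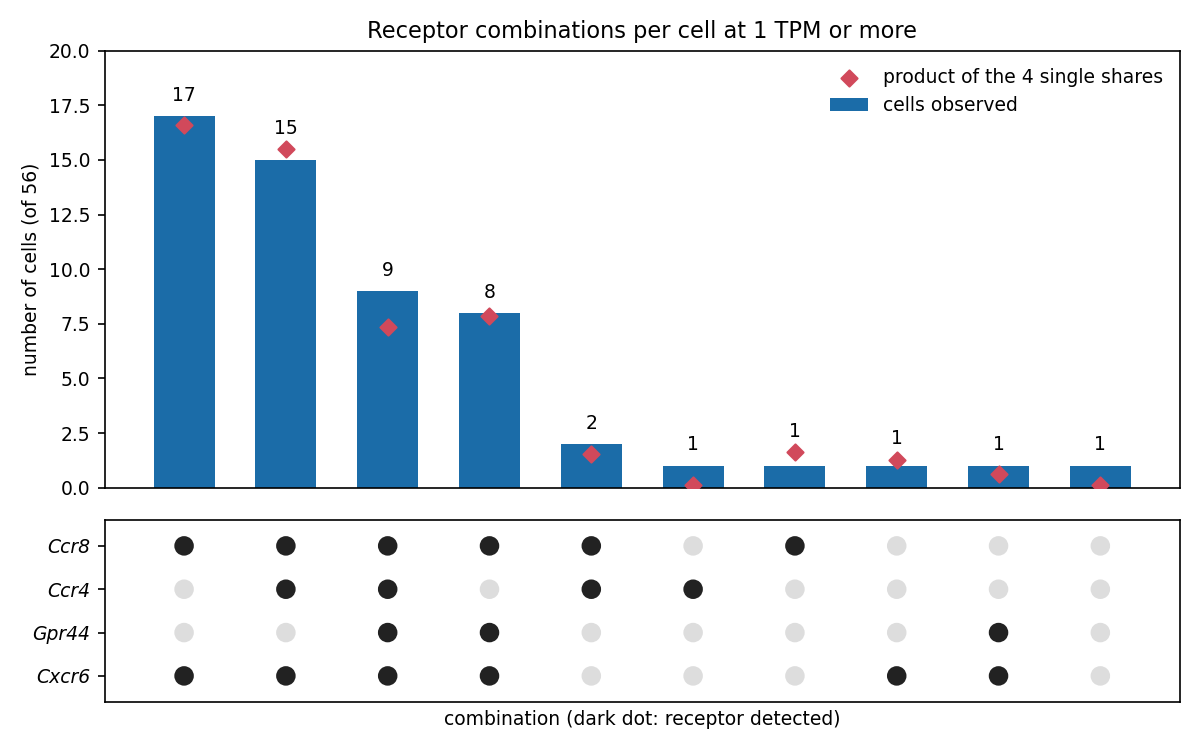
Number of cells (bars, y axis, of 56) with each of the 10 receptor combinations that occurred at 1 TPM or more; diamonds give the number expected from multiplying the 4 single shares, and dark dots in the lower panel mark the receptors present. The 4 tallest bars (17, 15, 9 and 8 cells) all hold Ccr8 and Cxcr6 and lie close to their diamonds.

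The number of genes detected in a cell moved with some of this. Cells with all 4 receptors had a median of 5146 genes, those with 3 had 4884, those with 2 had 4620.5, the 3 cells with 1 had 4623, and T3_1, with none, had 3666. Across cells, rho with the number of genes detected was 0.34 for Gpr44, 0.33 for Cxcr6, 0.04 for Ccr8 and -0.01 for Ccr4. Its part in the combinations was not tested. At 5 TPM or more, all 4 receptors were found in 5 cells and at 10 TPM or more in 2 (T3_8 and T5_5).

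Levels of the receptors were weakly related to each other. None of the 6 receptor pairs reached an absolute Spearman rho of 0.3 over the 56 cells, the round threshold used here for description only. A rho with no p is given throughout, since the labels name no separate animals or cultures and the cells are counted as 1 sample. Of the other genes detected in at least 10 cells, 2.90% passed this threshold with Ccr8 (1.97% upwards and 0.928% downwards), 3.85% with Ccr4 (1.97% and 1.88%), 6.28% with Gpr44 (6.07% and 0.203%) and 3.84% with Cxcr6 (3.44% and 0.394%). The highest values were 0.26 for Gpr44 with Cxcr6 (0.16 as a partial rho on the number of genes detected) and 0.23 for Ccr8 with Ccr4. Ccr8 and Cxcr6 had 0.13, Ccr8 and Gpr44 0.03, Ccr4 and Gpr44 0.01, and Ccr4 and Cxcr6 -0.04. Within sets the pairs were not stable. Ccr8 with Cxcr6 had 0.05, 0.38, 0.64, -0.50 and 0.29 in T1 to T5, and Ccr8 with Gpr44 had 0.45, 0.03, 0.52, -0.20 and -0.50. Gpr44 with Cxcr6 had 0.41, 0.40, 0.79, 0.14 and -0.17, so it was positive in 4 of 5 sets. Ccr8 with Ccr4 had -0.08, 0.00, 0.28, 0.43 and 0.32.

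Gata3 was present in every cell, from 55 TPM in T3_2 through a median of 818 to 2178 TPM in T5_4, so the receptors were set against its level. All 4 receptors had a positive but weak relation to its level. The rho was 0.29 for Ccr4, 0.23 for Cxcr6, 0.21 for Ccr8 and 0.13 for Gpr44, and none of the 4 reached 0.3. The median rho over all genes was -0.01 with Ccr4, 0.06 with Cxcr6, 0.02 with Ccr8 and 0.08 with Gpr44. Without cells T3_2 and T3_5 the values for Gata3 were 0.28, 0.21, 0.18 and 0.13. Without set T5 they were 0.14, 0.22, 0.21 and -0.07, so the sign for Gpr44 depended on that set. The sets differed. For Ccr4 the value was -0.30, -0.02, 0.62, 0.00 and 0.75 in T1 to T5, while for Ccr8 it was 0.05, 0.55, 0.36, -0.17 and 0.17. For Cxcr6 the values in T1 to T5 were 0.18, 0.56, 0.19, -0.12 and 0.23, and for Gpr44 they were -0.51, 0.22, 0.28, -0.64 and 0.42.

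In TPM, the 27 cells with Ccr4 had Gata3 from 175 through a median of 981 to 2178, and the 29 cells without Ccr4 had 55 through 717 to 1573, so the ranges overlap over most of their length. Gata3 in the 18 cells with Gpr44 had a median of 756 TPM (318 to 1758), against 849 (55 to 2178) in the 38 cells without it. By combination, the median of Gata3 was 981 TPM in the 15 cells with Ccr8, Ccr4 and Cxcr6, 974 in the 9 cells with all 4 receptors, 822 in the 17 with Ccr8 and Cxcr6 alone, and 661 in the 8 with Ccr8, Gpr44 and Cxcr6. T5_4, the cell highest in Gata3, was also the second highest in Ccr8 and in Cxcr6 and had 107 TPM of Ccr4. T3_2, the lowest in Gata3, was at 0 for 3 receptors and at 6 TPM for Cxcr6. A cell with much Gata3 could still be listed at 0 for receptors, as T3_3, at 1918 TPM, was for Cxcr6 and Gpr44. T3_3 had 2906 genes detected, against a median of 4743.5 over all cells.

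**Figure D3:**
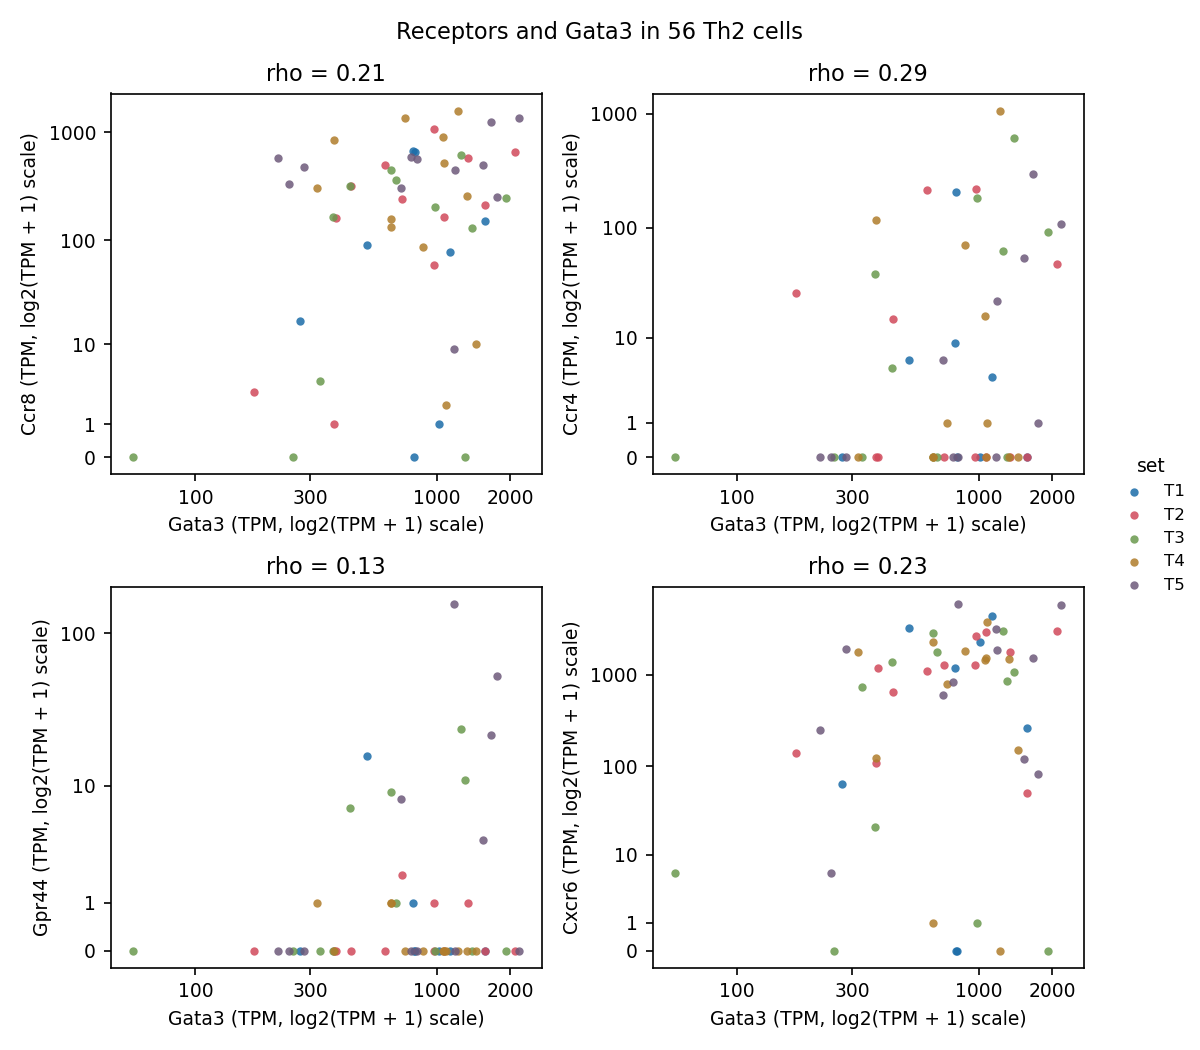
Level of each receptor (y axis) against Gata3 (x axis) in 56 cells, both in TPM on the log2(TPM + 1) scale, with 1 point per cell coloured by set. The clouds are broad in all 4 panels, with rho of 0.21 for Ccr8, 0.29 for Ccr4, 0.13 for Gpr44 and 0.23 for Cxcr6.

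Across the 11 cytokines, the receptors showed few relations, and these differed by receptor. Of the 44 receptor and cytokine pairs, 5 reached an absolute rho of 0.3. They were Ccr8 with Il5 (0.39) and Il3 (-0.43), Ccr4 with Il3 (-0.32), and Cxcr6 with Il4 (0.36) and Areg (0.35). By receptor this was 2 of 11 cytokines for Ccr8, 1 for Ccr4, 0 for Gpr44 and 2 for Cxcr6. The shares over all genes were 2.90%, 3.85%, 6.28% and 3.84%, in the same order. Cxcr6 with Il10 lay just under the threshold, at 0.29, and depended on the measure: it was 0.47 as Pearson's r of log2(TPM + 1) and 0.17 as a partial rho on the number of genes detected. Il31 had -0.27 with Ccr8 and -0.24 with Ccr4, and -0.31 with each as the same Pearson's r. As a partial rho these 2 values were -0.28 and -0.24. Gpr44 had no pair past the threshold, its highest being 0.24 with Il6 and 0.21 with Il5. Over the 11 cytokines the median rho was 0.02 for Ccr8, -0.02 for Ccr4, 0.05 for Gpr44 and 0.13 for Cxcr6, close to the medians over all genes for Ccr8 and Ccr4. Il13, the cytokine that acts on mucus and epithelium, had values between -0.01 and 0.04 with all 4 receptors.

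Ccr8 was high in the cells that held most of the eosinophil growth factor Il5. All 14 cells with Il5 had Ccr8, where the product of shares gives 13.0, at 2 through a median of 510 to 1258 TPM, against 0, 164 and 1586 TPM in the 42 cells without Il5. In the 10 cells with at least 100 TPM of Il5, a limit chosen after its values were seen, Ccr8 lay between 320 and 1258 TPM, with a median of 488. The other 46 cells had a median of 184 TPM and ran from 0 to 1586. None of these 10 cells was thus low in Ccr8, while T4_3, the cell highest in Ccr8, was listed at 0 for Il5. Among the 10, T5_5, T5_6, T5_9, T5_11 and T5_12 came from T5, the set with the highest median of Ccr8 (488 TPM). The rho within T1 to T5 was 0.58, 0.39, 0.79, -0.04 and 0.20, but Il5 was detected in only 1 cell each of T1 (T1_6, 5 TPM) and T2 (T2_5, 2178 TPM). Over all sets it stayed at 0.31 or more in the 11 alternatives run.

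Il3, a growth factor for basophils and mast cells, ran opposite to Ccr8 and Ccr4. The 8 cells with at least 10000 TPM of Il3, again a limit chosen after the values were seen, had Ccr8 between 1 and 362 TPM with a median of 112, against a median of 307 TPM (0 to 1586) in the other 48 cells. In those 8 cells Ccr4 was at most 26 TPM and detected in 2. Of the 5 cells with at least 1000 TPM of Ccr8, T4_2 had 1671 TPM of Il3 and the others had 0 to 5 TPM. The relation was not seen in every set. The rho of Ccr8 with Il3 was 0.29, -0.67, 0.07, -0.63 and -0.74 in T1 to T5, negative in 3 of 5. The rho of Ccr4 with Il3 was 0.15, -0.30, -0.63, -0.39 and -0.48, negative in 4 of 5, and fell short of the threshold, at -0.25, without cells T4_3 and T3_7. The median of Il3 was 21 TPM in the 27 cells with Ccr4 and 629 TPM in the 29 cells without it, but the highest cell of each group reached 75448 TPM with Ccr4 and 80859 TPM without it.

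Cxcr6 went with Il4, the defining Th2 cytokine, and with Areg, an epidermal growth factor family member. All 51 cells with Cxcr6 had Il4, where the product of shares gives 49.2, at 2 through a median of 494 to 26918 TPM, and the 5 cells without Cxcr6 had 0 through 8 to 291 TPM. Both cells listed at 0 for Il4, T3_3 and T4_3, were also at 0 for Cxcr6. They had the fewest genes detected of all cells, 2906 and 2679. The rho of Cxcr6 and Il4 within T1 to T5 was 0.22, -0.27, 0.73, 0.59 and 0.34, and that of Cxcr6 and Areg was 0.48, 0.31, 0.28, 0.52 and 0.28, positive in 5 of 5 sets. As a partial rho on the number of genes detected per cell the values were 0.27 and 0.26, below the threshold. Areg itself had a rho of 0.35 and Il4 of 0.38 with the number of genes detected. Apart from the partial rho, the part of that number in both relations was not tested. The 4 cells with at least 1000 TPM of Areg had Cxcr6 between 1754 and 4315 TPM, against a median of 956 TPM (0 to 5802) in the other 52. The 4 cells with at least 5000 TPM of Il4 had Cxcr6 from 51 through a median of 2307 to 5757 TPM, against a median of 1130.5 in the other 52. Both limits were chosen after the values were seen. T2_6, the highest in Il4 (26918 TPM), had 51 TPM of Cxcr6. T5_1 and T5_4, the highest in Cxcr6, had 1 and 4 TPM of Areg.

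**Figure D4:**
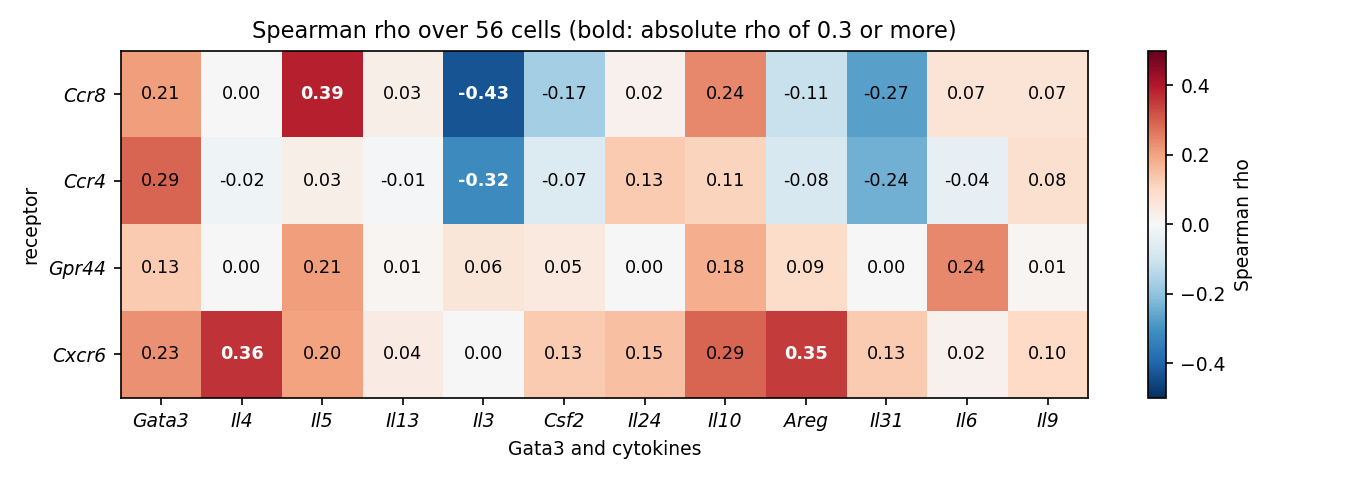
Spearman rho over 56 cells of each receptor (rows) with Gata3 and with 11 cytokines (columns), from blue (negative) to red (positive), with the value in each cell of the grid. Bold white marks the 5 values of at least 0.3 in size: Ccr8 with Il5 and Il3, Ccr4 with Il3, and Cxcr6 with Il4 and Areg.

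**Figure D5:**
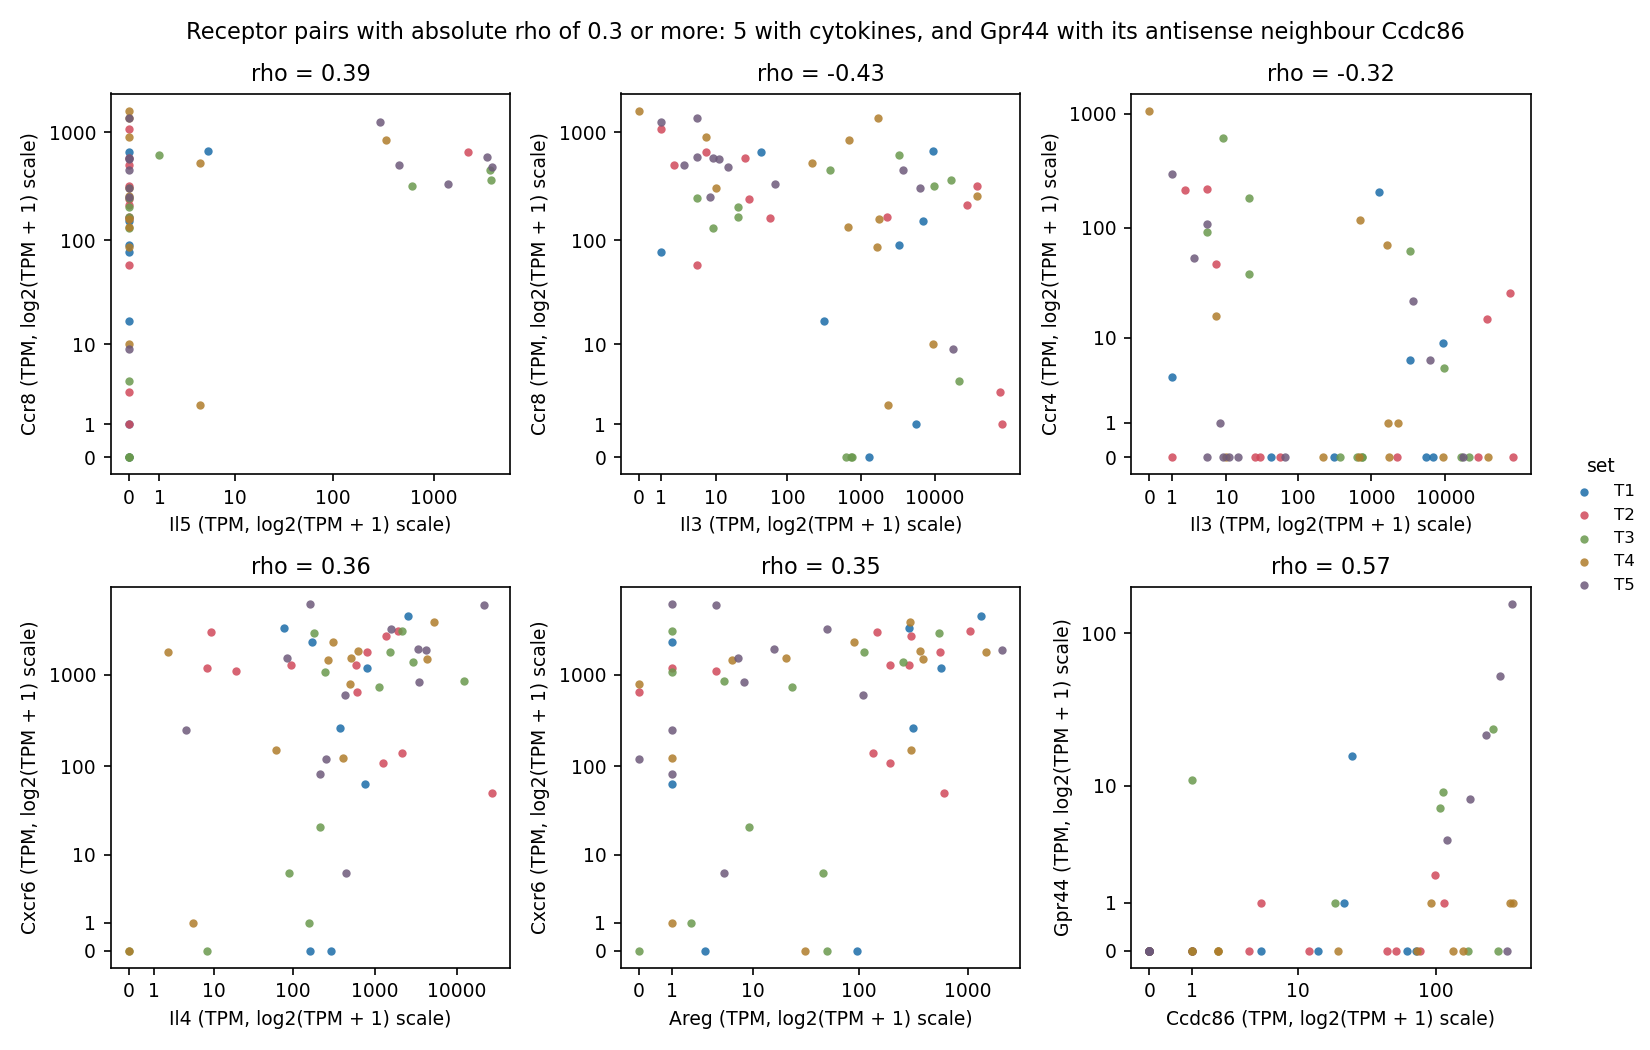
Cells plotted by TPM (log2(TPM + 1) scale on both axes, coloured by set) for the 5 cytokine pairs past the threshold and for Gpr44 with Ccdc86, the gene opposite it. The 10 cells with much Il5 sit at 320 to 1258 TPM of Ccr8, the 8 cells at the right end of Il3 lie at 1 to 362 TPM of Ccr8 and at no more than 26 TPM of Ccr4, and every Gpr44 point above 0 has Ccdc86.

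The combinations did not differ in a clear order by Il4, Il5, Il13 or Il6, while their medians of Il3 lay further apart. The Il3 median was 3273 TPM with all 4 receptors and 524 with Ccr8, Gpr44 and Cxcr6. It was 313 with Ccr8 and Cxcr6 and 21 with Ccr8, Ccr4 and Cxcr6, and the ranges overlapped. The highest and the lowest of these medians thus both belonged to combinations with Ccr4. Il4 was in all 49 cells of the 4 common combinations, with medians of 608 TPM (Ccr8, Ccr4 and Cxcr6), 511 (Ccr8 and Cxcr6), 434 (all 4) and 244 (Ccr8, Gpr44 and Cxcr6), each within the range of the others. Il5 was in 5 of the 9 cells with all 4 receptors, 4 of 17 with Ccr8 and Cxcr6, 3 of 15 with Ccr4 added and 2 of 8 with Gpr44 added. Il13 was in 6 of 9, 8 of 17, 9 of 15 and 6 of 8 of the same cells. Il6 was in 5 of 9, 4 of 17, 1 of 15 and 2 of 8. The median number of genes detected was 5146 with all 4 receptors, 4696 with Ccr8 and Cxcr6, 4807 with Ccr4 added and 5270.5 with Gpr44 added, and its part in these counts was not tested.

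Of the receptors' own ligands, Ccl1 was found in nearly all cells and Ccl22 in few. Of the 10 ligand and prostaglandin enzyme genes listed, 5 were analysed here and 2 were in at least 10 cells. Ccl1, the Ccr8 ligand, was detected in 55 cells at a median of 3925 TPM and had a rho of -0.31 with Ccr8, negative in T2, T4 and T5 (-0.54, -0.70 and -0.76) and positive in T1 and T3 (0.33 and 0.21). Hpgds, the enzyme that makes prostaglandin D2, was in 44 cells, among them all 18 with Gpr44 (14.1 from the product of shares), and had a rho of 0.37 with Gpr44, with positive values in all 5 sets (0.15 to 0.63). Hpgds ran from 2 through a median of 50.5 to 410 TPM in the 18 cells with Gpr44, against 0, 14 and 278 TPM in the 38 without it. These Gpr44 values carry the limit from Ccdc86 given above. Of the 2 genes, 1 thus passed with Ccr8 (downwards), 0 with Ccr4, 1 with Gpr44 (upwards) and 0 with Cxcr6. The shares over all genes were 2.90%, 3.85%, 6.28% and 3.84%, in that order. The Ccr4 ligand Ccl22 was in 2 cells, neither of which had Ccr4 (0.964 from the product of shares). Upstream of Hpgds, the cyclooxygenase Ptgs2 was in 7 cells and Ptgs1 in 3.

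Among the 32 other trafficking receptors listed, 20 were analysed and 14 were in at least 10 cells. Those found in the most cells were the orphan receptor Gpr171 (52 cells, mean 518 TPM), Gpr174 (51 cells, 64.2 TPM), the acid-sensing receptor Gpr65 (50 cells, 192 TPM) and the prostaglandin E2 receptor Ptger2 (46 cells, 59.3 TPM). Ccr7, the lymph node homing receptor, was in 27 cells at a mean of 99.1 TPM. With Ccr4, 3 of the 14 reached 0.3, namely Ccr1 (0.39, 10 cells), Gpr132 (0.31) and Gpr18 (0.30). With Cxcr6, the monocyte and T cell receptor Ccr2 did so (0.45, 25 cells). Ccr8 and Gpr44 had none. The shares over all genes were 3.85% with Ccr4, 3.84% with Cxcr6, 2.90% with Ccr8 and 6.28% with Gpr44. The eosinophil receptor Ccr3 (4 cells, rho 0.33 with Ccr8) and the egress receptor S1pr1 (8 cells, 0.42 with Ccr4) were in too few cells to count. The median rho of the 14 genes was 0.07 with Ccr8, 0.13 with Ccr4, 0.14 with Gpr44 and 0.15 with Cxcr6.

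Genes that carry the receptor signal followed the same sparse pattern. Of 33 listed, 30 were analysed and 27 were in at least 10 cells. The G protein subunit Gnb1 and the small GTPases Rap1b, Cdc42 and Rhoa were in all 56 cells. With Ccr4, the GTPase Rac2 (0.33) and the G protein regulator Rgs10 (0.35) were at or above 0.3 and the regulator Rgs16 (-0.35) was below -0.3. With Cxcr6, the Rac activator component Elmo1 (0.35) and the subunit Gng2 (0.31) passed, with Ccr8 the actin regulator Coro1a (0.36), and with Gpr44 the receptor kinase Grk6 (0.36, 15 cells). Of the 27, 1 thus passed with Ccr8, 2 upwards and 1 downwards with Ccr4, 1 with Gpr44 and 2 with Cxcr6. The shares over all genes were 2.90%, 3.85%, 6.28% and 3.84%, in that order. The median rho of the list was between 0.05 and 0.12 for the 4 receptors.

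In the homing and adhesion list, 13 of 14 genes were analysed and 9 were in at least 10 cells. Selplg, the P-selectin ligand that lets T cells roll on inflamed vessels, had a rho of 0.42 with Ccr8 and was the only one of the 9 at 0.3 or more in size with any receptor. Over all genes, 2.90% passed with Ccr8, 3.85% with Ccr4, 6.28% with Gpr44 and 3.84% with Cxcr6. Fut7, which adds the sugar that selectins bind, had 0.31 with Ccr8 but was in 3 cells. Cd44 and Ecm1 were in all 56 cells, Itgb2 in 49 and Itgb1 and Itgal in 43 each, and their values with Ccr8 ran from -0.10 to 0.27.

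Of the 16 Th2 regulators analysed out of 19 listed, all were in at least 10 cells. Irf4 and the Notch effector Rbpj had a rho of 0.34 each with Ccr8. Batf (0.40) and Satb1 (0.33) passed with Ccr4, and Maf (0.30) with Cxcr6, while none passed with Gpr44. Over all genes, 2.90% passed with Ccr8, 3.85% with Ccr4, 3.84% with Cxcr6 and 6.28% with Gpr44. Rbpj was in 56 cells, Irf4 and Satb1 in 53 and Bhlhe40 in 52. The last of these, a transcription factor of cytokine-producing T cells, had values between -0.16 and 0.20.

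Regulatory T cells are also known to carry Ccr8 and Ccr4, so their markers were set beside these receptors. All 6 Treg markers listed were analysed, and their summed level ran from 122 through a median of 1014 to 8060 TPM per cell. Il2ra, Folr4 and Ctla4 made up most of it, at means of 660, 457 and 284 TPM, against 2.61 for Foxp3. Il2ra and Ctla4, which activated T cells of other kinds also express, had a rho of 0.38 each with Ccr8 and of 0.33 and 0.34 with Ccr4. Thus 2 of the 3 markers in at least 10 cells passed with each, against 2.90% of all genes with Ccr8 and 3.85% with Ccr4. With Cxcr6 the values of Il2ra and Ctla4 were 0.29 and 0.16, and with Gpr44 0.18 and -0.14. The defining factor Foxp3 was in 9 cells, at up to 40 TPM, and had -0.09 with Ccr8 and 0.12 with Ccr4. Ikzf2 was in 5 cells and Lrrc32 in 4. Folr4 was in 50 cells and had 0.13 with Ccr8, -0.21 with Ccr4 and 0.30, just under the threshold, with Cxcr6. Cd3g, a T cell receptor component, had 0.31 with both Ccr8 and Ccr4. The part of T cell activation or of Treg genes in the receptor levels was not tested.

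The genes most like each receptor over the 56 cells were different for each. For Ccr8, the 5 highest rho values among 7870 other genes belonged to the membrane protein Itm2b (0.54), the kinase Mknk2 (0.53), the kinase Gsk3b (0.48), the transcription factor subunit Taf12 (0.48) and the ferritin heavy chain Fth1 (0.47), and the lowest to the alanyl-tRNA synthetase Aars (-0.49) and Il3 (-0.43). For Ccr4, they were Gclm, a subunit of the enzyme that begins glutathione synthesis (0.50, 18 cells), the surface antigen Ly6a, also called Sca-1 (0.50), the tetraspanin Tspan4 (0.48, 20 cells), the interferon-inducible Ifi27l2a (0.46) and the transcription factor Fli1 (0.45), and the lowest were Plaa (-0.55) and the antioxidant enzyme Srxn1 (-0.53).

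Gpr44 was most like the kinetochore protein gene Cenpf (0.64, 21 cells), the signalling phospholipase Plcg1 (0.59, 13 cells), the microRNA gene Mir25 (0.58, 13 cells), Ccdc86 (0.57, 42 cells) and the histone demethylase Phf8 (0.57, 22 cells). Ccdc86 is the gene on the strand opposite Gpr44 described above, so its place in this list is uncertain. The lowest were Sgsm3 and Gm13498 (-0.38 each). For Cxcr6, genes among the highest were the transcription factor Zeb2 (0.52), 2310016M24Rik (0.51) and Ppwd1 (0.51), and the lowest were the endoplasmic reticulum chaperone Hsp90b1 (-0.43) and the chromatin protein Baz1b (-0.42). With ranks centred by set, with the number of genes detected held constant or without cells T3_2 and T3_5, all of these genes kept their sign and were at least 0.35 in size. They were picked as the extremes of many genes, so their values are a description of these cells.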

How the data were processed

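Per the labels' protocols, cells were trapped and their RNA amplified in the microfluidic Fluidigm C1 system. The deposited values are treated as a score: they hold no fractions and add up to 999202 to 999914 per cell, so they are TPM after rounding by the authors. The submitters' processing notes name build mm9, FastQC, Bowtie 0.12.2 and Cufflinks, with no role for any of them. Depth cannot be read from TPM, and every gene in the table reached 5 TPM in at least 1 cell. Of all values, 55.4% were 0, and 0 of 1540 pairs of cells were identical.

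The cells count as 1 sample, so no test between cells was run. Shares carry exact Clopper-Pearson 95% intervals. Correlations are Spearman rho of TPM over 56 cells, with 7871 genes detected in at least 10 cells as background. The functions were tested on simulated data. Python 3.11.15, numpy 2.4.6, pandas 2.3.3 and scipy 1.17.1 were used. Symbols were matched to GRCm38.p6 tables (9501 current, 948 older, 116 unmatched; Gpr44 is an older name), and 4 of 4 receptors had a RefSeq promoter.

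The receptors, gene lists and alternatives were chosen with earlier results of these data known. The text names the receptors, Gata3 and the cytokines in full, the 5 highest and 2 lowest genes by rho with each receptor (some of those for Cxcr6 are not reported here), and from other lists the genes in the most cells (up to 4) and those at 0.3 or more in size. Genes in under 10 cells were left out of the counts. Ccdc86 and Fyco1 were added after the data were seen, because they overlap receptors. Alternatives were other detection thresholds, each set left out, cells T3_2 and T3_5 left out, set-centred ranks, partial rho, Pearson's r of log2(TPM + 1) or log2(TPM + 10), and other filters and windows for variation.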

Additional observations from a re-analysis of the deposited data

How the results depend on the processing

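Of the 128 alternatives for the main results, 107 were counted as keeping them, but wide changes passed, so this tally does not measure stability. Detection of Ccr8 at 83.9% (5 TPM or more) in place of 92.9% counted as kept. So did 7 cytokine pairs (Pearson's r of log2(TPM + 1)) or 4 (without T3) in place of 5. All alternatives for the mean levels counted as kept. Leaving out a single cell can move a mean by only a small part of the SD over cells, so that alternative could hardly fail. No paired analysis was possible because the cells form 1 group. Detection depended on the threshold. At 5 TPM or more, Gpr44 was in 16.1% of cells, at least 3 receptors in 37.5% and Ccr8 with Cxcr6 in 75%. At 10 TPM or more, Ccr8 was in 82.1%, Ccr4 in 33.9%, Gpr44 in 10.7%, at least 3 receptors in 28.6% and Ccr8 with Cxcr6 in 71.4%. Of the receptor pairs, 1 (Gpr44 with Cxcr6) reached a rho of 0.3 without set T4 (0.32), and 1, the same pair, without T5 (0.40). Without T3 that pair fell to 0.10. Of the Gata3 pairs, 1 reached it with Pearson's r of log2(TPM + 1) and 1 with log2(TPM + 10) (Ccr8 in each), and 1 without T1, 1 without T2 and 1 without T4 (Ccr4 in each). Without T5 the rho of Gata3 with Ccr4 fell to 0.14 and that with Gpr44 to -0.07. The 5 cytokine pairs became 3 as a partial rho on genes detected, without both Cxcr6 pairs, and 8 with r of log2(TPM + 10) and 8 without T5. The 2 pairs of Ccr8 kept to the threshold in all 11 alternatives (Il5 0.31 to 0.48, Il3 -0.53 to -0.30), Ccr4 with Il3 in 9, Cxcr6 with Il4 in 8 and Cxcr6 with Areg in 9, with no change of sign. Excess variation of Ccr4 was 0.84 without each gene's highest cell and 0.39 without T4, and that of Gpr44 was 1.08 without T3. The cause of these changes was not tested, apart from the fewer cells that each higher threshold leaves. Without cell T5_8 the mean of Gpr44 was 2.96 in place of 5.64 TPM, which still counted as kept. Rounding to whole numbers limits values of 1 to 4 TPM, which make up 9 of the 18 cells with Gpr44.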

Other observations

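Single cells at the extremes carried unlike sets of genes. T5_4 combined 2178 TPM of Gata3, 5757 of Cxcr6 and 1360 of Ccr8 with the highest Il10 (23652 TPM) and Il24 (7755 TPM) of all cells and the second highest Il4 (21171 TPM), while Il3 was at 5 TPM. It was also the highest cell for Batf (3897 TPM), Il2ra (2871 TPM) and Ctla4 (5184 TPM). T4_3 had the highest Ccr8 (1586 TPM) and Ccr4 (1063 TPM), but was listed at 0 for Cxcr6, Gpr44, Il4, Il5 and Il3. It was the only cell at 0 for Il3, and it had the fewest genes detected, 2679. T3_3, the other cell with Ccr8 and Ccr4 and no Cxcr6, was also at 0 for Il4 and at 5 TPM for Il3.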
